A study of Mus musculus with 42 samples.

Results

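The chemokines measured here are the products of 35 mouse genes, taken from 20462 genes listed in 9 tables of normalized counts from colon crypts and colon tumors. A gene was included where its symbol was Ccl or Cxcl followed by a number and at most 1 further letter, or was Cx3cl1, and no measured value entered that choice. Of the 35 genes, 28 were listed in all 9 tables, and single tables held 28 to 34 of them. All mice were C57/BL6 and at least 8 weeks old, and were bred from heterozygous parents in 2 independent colonies. One colony carried a null allele of Mtg16 (gene symbol Cbfa2t3), a transcriptional corepressor, and the other carried a P209T substitution in Mtg16 whose homozygotes are called T/T. Both alleles were inherited in the germline, with no cell type-specific driver, and each mutant group was set against WT littermates of its own colony.

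The 42 RNA-seq libraries formed 14 groups. Distal colon crypts at baseline gave 4 Mtg16-null libraries, 4 from their WT littermates, 4 T/T libraries and 3 from the WT littermates of T/T mice. Proximal crypts at baseline gave 2 libraries for each of the same 4 genotype groups. Distal crypts were also collected after injury and repair, in which mice drank 2% dextran sulfate sodium (DSS) for 5 days and then water for 4 days. That experiment gave 4 Mtg16-null libraries, 3 from their WT littermates, 3 T/T libraries and 3 from their WT littermates. Distal tumors gave 3 T/T and 3 WT libraries of the T/T colony, from mice given 10 mg/kg azoxymethane (AOM) and 3 cycles of 3% DSS, each of 4 days followed by 16 days of water. Distal meant the 5 cm nearest the anus and proximal the 5 cm nearest the cecum. Crypts were freed by EDTA chelation without cell sorting, and tumors were dissected by appearance, so both preparations held cells other than epithelium. The labels do not say that libraries of a group came from separate mice, so p-values measure the spread between these libraries.

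Chemokines are small secreted proteins, with Cx3cl1 and Cxcl16 also held on the cell membrane, that draw leukocytes by binding G protein-coupled receptors. In the colon, epithelial cells secrete several of them. Ccl20 draws CCR6-bearing dendritic cells and lymphocytes, Ccl28 and Ccl25 draw plasma cells and T cells to mucosa, and the CXCR2 ligands (Cxcl1, Cxcl2, Cxcl3 and Cxcl5) draw neutrophils into injured tissue. Cxcl9, Cxcl10 and Cxcl11 are interferon-induced genes named for ligands of CXCR3 on T cells, although GENCODE annotates Cxcl11 as a polymorphic pseudogene in the reference, so that its values here are of a transcript and do not stand for a protein. Ccl3, Ccl4 and Ccl5 draw T cells and monocytes, and Ccl6 and Ccl9 bind CCR1 on myeloid cells.

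The genes were clustered in the genome, with 12 on chromosome 11 and 10 on chromosome 5 (GENCODE annotation of GRCm38). Ccl9 (chr11:83572919-83578636, minus strand) and Ccl6 (chr11:83587882-83593087, minus strand) were neighbours, and Cxcl5 (chr5:90759360-90761624), Cxcl3, Cxcl15, Cxcl1 (chr5:90891241-90893115) and Cxcl2 lay in this order on the plus strand of chromosome 5. RefSeq promoter windows, from 250 bases before to 50 bases after a gene's start on GRCm38.p6, were matched for 25 of the 35 genes, with 28 windows in all. The 250 bases before the start are shown for the CXCR2 ligand genes Cxcl1, Cxcl2 and Cxcl3, for Ccl20, and for Ccl6 and Ccl9, whose transcripts differed between groups in several comparisons. Capitals mark matches to the NF-kB motif on either strand.
Cxcl1 (chr5:90890995-90891244, plus strand): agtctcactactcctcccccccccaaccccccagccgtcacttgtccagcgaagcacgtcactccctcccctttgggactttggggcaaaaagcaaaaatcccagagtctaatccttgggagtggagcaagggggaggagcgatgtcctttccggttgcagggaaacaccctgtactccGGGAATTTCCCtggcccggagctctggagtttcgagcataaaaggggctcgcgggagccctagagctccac
Cxcl2 (chr5:90903649-90903898, plus strand): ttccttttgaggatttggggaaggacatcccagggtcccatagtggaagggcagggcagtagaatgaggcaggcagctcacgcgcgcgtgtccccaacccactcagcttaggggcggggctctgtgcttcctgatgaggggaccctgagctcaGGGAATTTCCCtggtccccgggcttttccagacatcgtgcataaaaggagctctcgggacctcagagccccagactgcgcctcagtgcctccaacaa
Cxcl3 (chr5:90785851-90786100, plus strand): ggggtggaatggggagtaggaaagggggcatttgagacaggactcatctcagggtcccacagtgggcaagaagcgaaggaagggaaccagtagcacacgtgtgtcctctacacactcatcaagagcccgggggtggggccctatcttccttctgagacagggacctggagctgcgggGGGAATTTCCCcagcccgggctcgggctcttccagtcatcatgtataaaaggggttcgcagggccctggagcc
Ccl20 (chr1:83116516-83116765, plus strand): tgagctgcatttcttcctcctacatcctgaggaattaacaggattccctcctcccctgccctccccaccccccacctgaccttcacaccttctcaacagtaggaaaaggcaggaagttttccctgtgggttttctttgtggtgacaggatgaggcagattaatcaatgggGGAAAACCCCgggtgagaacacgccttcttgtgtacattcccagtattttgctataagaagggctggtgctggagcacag
Ccl9 (chr11:83578637-83578886, minus strand): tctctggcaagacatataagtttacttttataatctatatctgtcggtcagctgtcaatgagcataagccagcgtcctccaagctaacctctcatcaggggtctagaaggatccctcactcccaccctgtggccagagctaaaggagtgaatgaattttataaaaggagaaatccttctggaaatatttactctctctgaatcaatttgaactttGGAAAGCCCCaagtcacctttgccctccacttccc
Ccl6 (chr11:83593088-83593337, minus strand): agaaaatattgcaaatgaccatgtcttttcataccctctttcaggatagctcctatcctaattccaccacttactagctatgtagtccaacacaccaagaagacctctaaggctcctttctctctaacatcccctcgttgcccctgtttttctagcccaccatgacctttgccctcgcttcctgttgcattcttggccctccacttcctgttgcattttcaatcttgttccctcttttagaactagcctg

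The NF-kB motif was found in 8 of the 28 chemokine windows (28.6%), against 2779 of all 32851 RefSeq windows of the same length (8.46%). Cxcl1, Cxcl2 and Cxcl3 carried the same 11 letters, which match the motif on both strands, with first bases 71, 97 and 73 bases before their starts. Ccl20 had a match 80 bases and Ccl9 a match 35 bases before the start, both on the opposite strand, and the Ccl6 window held no match to these letters. TATAAA was found on either strand in 9 of 28 windows (32.1%) against 13.6% of all windows, and CANNTG, the E-box core, in 22 of 28 (78.6%) against 72.3%. TTCNNNGAA, the letters of a STAT site, was found in 2 of 28 (7.14%) against 8.3%. A match of letters is not evidence of binding, and the searches overlapped where motifs share bases.

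Total reads of the 38 libraries whose reads, recovered from the normalized counts, were used ran from 32231389 to 74661922 (median 46659625). A transcript at a few normalized counts thus rested on a few reads. The label of 1 library went against its expression of segment genes. The library labelled Mtg16-null distal baseline replicate 2 had 245 normalized counts of Hoxb13 and 0 of Hoxd13, while its WT comparators had 18300 to 20000 and 3580 to 6650. It also had 9750 counts of Abca12, which was at 8890 to 13300 in proximal WT crypts and at most 22.9 in distal WT crypts of its table. The genotype comparison it enters is given with and without it. The Mtg16 transcript itself was at 694, 1095, 424 and 688 in Mtg16-null and 1809, 1666, 1027 and 1555 in WT distal baseline crypts, where the 1 overlapping library was the same replicate 2. It was at 427, 594, 595 and 486 in Mtg16-null crypts after DSS and at 2020, 1845 and 2519 in WT crypts, with no overlap. In T/T crypts after DSS it was at 3073, 2956 and 3125 against 3126, 3087 and 2244 in WT, with overlap. In distal T/T crypts at baseline it was at 1919, 1813, 1509 and 2196 against 937, 985 and 1040, and it was also higher without overlap in proximal T/T crypts (2529 and 2988 against 2049 and 2034) and in T/T tumors (1641, 1931 and 1825 against 1475, 1115 and 1263). Epithelial markers (Epcam, Cdh1, Krt8, Krt20, Vil1, Cdx2 and Lgals4) were detected in every comparison, summing to 617611 to 792934 normalized counts in WT baseline crypts.

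Levels could be compared between genes only after division by transcript length. Per kilobase of the longest transcript, Ccl6 ranked first among the chemokine genes in WT distal crypts at baseline, with 8230 ± 1740 normalized counts per kb (SD, n = 7), 56.5% of the sum over all chemokine genes. Ccl28 followed with 3820 ± 622 (26.3%) and Cx3cl1 with 973 ± 210 (6.69%), and the libraries of these 3 genes did not overlap. In WT proximal crypts the order was Ccl6 (12600 ± 2520 per kb, 63.8%, n = 4), Ccl5 (3220 ± 845, 16.3%) and Ccl28 (1920 ± 154, 9.76%). WT tumors were led by Cxcl5 (5610 ± 674 per kb, 21.6%, n = 3) and Ccl6 (4860 ± 1330, 18.7%), which did not differ beyond their spread, followed by Cxcl14 (2430 ± 547) and Ccl21a (2090 ± 460). This order holds for division by the longest transcript. Median annotated lengths were 466 bases for Cx3cl1, 2568 for Ccl28, 776 for Ccl6 and 1719 for Cxcl5. Division by the median length would change these levels and could change the order, which was not tested. The tables were normalized separately, so a difference in level between tissues in different tables cannot be read. Exons of some chemokine genes share bases with a gene on the other strand, and without strand information reads there cannot be told apart. The shared bases were 204 for Ccl25 with Elavl1, 552 for Cxcl16 with Zmynd15, 133 for Cxcl10 with Art3, 8 for Ccl27a with Il11ra1 and 1582 for Cxcl11 with Gm2673.

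The comparison of distal with proximal crypts from WT mice asked which chemokine transcripts follow position along the colon. Distal crypts held more Cxcl5, Cxcl1, Ccl20, Ccl28, Ccl7 and Ccl8, and less Ccl9, Ccl5, Ccl3, Ccl4, Cxcl9, Cxcl11, Ccl25 and Ccl6. These were 14 of the 20 chemokine genes with a mean of at least 10 normalized counts, 6 higher and 8 lower in distal crypts (limma on log2(normalized count + 1), Benjamini-Hochberg adjusted p under 0.05 over all genes). Among all genes tested, 42.1% passed in either direction, 20.1% higher and 22.0% lower. Ccl3, Ccl7, Cxcl2 and Cxcl5 met the minimum through the higher segment alone, a mean under 10 being left in the other, so that a difference was built into their selection. Of the other 16 genes, 11 passed, 4 higher and 7 lower. The median log2 difference was -0.18 over the chemokine genes and 0.005 over all genes. The other 14 listed genes, among them Cxcl3, Cxcl12, Cxcl14 and Ccl2, were below the filter.

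Cxcl5, a CXCR2 ligand, ranged from 78.9 to 174 normalized counts (median 99.9) in the 7 distal libraries. The 4 proximal libraries had 9.31, 10.6, 3.19 and 2.91, far below every distal library. The means were 112 ± 34.3 and 6.51 ± 4.03 (SD), a 17.2-fold difference (log2 4.03, SE 0.339, adjusted p = 4.34e-07). The second CXCR2 ligand, Cxcl1, ranged from 33.5 to 166 (median 76.4) in distal crypts and had 14.5, 10.6, 18.3 and 21.3 in proximal crypts, again without overlap (log2 2.13, SE 0.379, adjusted p = 0.000473). Cxcl2 overlapped between segments (log2 1.23, adjusted p = 0.106).

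Among chemokines of the mucosa, Ccl20 ranged from 130 to 391 (median 218) in distal libraries and had 48.6, 29, 37.4 and 34.9 in proximal libraries. No proximal value reached the lowest distal one, and the difference was 2.55 on the log2 scale (SE 0.287, adjusted p = 7.73e-06). Ccl28 ranged from 12473 to 19410 (median 13777) against 7892, 6849, 7431 and 6615 (log2 0.98, SE 0.105, adjusted p = 4.55e-06). Ccl25 moved the other way, with 149 to 225 (median 192) in distal and 254, 428, 275 and 244 in proximal crypts (log2 -0.63, SE 0.163, adjusted p = 0.00688). The membrane-held chemokines did not pass the test, with log2 differences of 0.34 for Cxcl16 (adjusted p = 0.139) and 0.25 for Cx3cl1 (adjusted p = 0.392) and overlapping values in both segments.

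Ccl3, Ccl4, Ccl5, Ccl6 and Ccl9, 5 chemokines that draw myeloid cells and T cells, were all lower in distal crypts, Ccl3 having met the minimum through proximal crypts alone. Ccl9 ranged from 126 to 233 (median 189) in distal libraries and had 1237, 1182, 1744 and 1453 in proximal libraries. Its groups were far apart, with means of 183 ± 36.4 and 1400 ± 255 (log2 -2.94, SE 0.164, adjusted p = 7.98e-09). Ccl6, its neighbour on chromosome 11, ranged from 9675 to 15919 (median 10702) against 15618, 15153, 23019 and 18687, so that the highest distal library passed the lowest proximal ones (log2 -0.62, SE 0.154, adjusted p = 0.00522). Ccl5, made by T cells among others, ranged from 167 to 769 (median 352) against 2542, 1937, 1452 and 2670 (log2 -2.53, SE 0.396, adjusted p = 0.000162). Ccl3 and Ccl4 were at 87.2 counts or fewer in every library (log2 -2.18 and -1.82, adjusted p = 0.0109 and 0.00364).

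Of the CXCR3 ligand genes, Cxcl9 and Cxcl11 were both lower in distal crypts without overlap. Cxcl9 ranged from 27.1 to 148 (median 69.1) against 185, 257, 503 and 265 (log2 -1.87, SE 0.393, adjusted p = 0.00164). Cxcl11 ranged from 11.5 to 21.9 (median 16.9) against 57.9, 104, 51.8 and 35.9 (log2 -1.79, SE 0.291, adjusted p = 0.000216). Cxcl10 overlapped (log2 -0.85, adjusted p = 0.169). Ccl7 and Ccl8, which draw monocytes, were higher in distal crypts, while Ccl2 was below the filter. Ccl7 was at 9.02 to 36.6 (median 21.1) in distal and at 0, 0, 0 and 2.91 in proximal crypts (adjusted p = 3.91e-05). With 3 proximal libraries at 0, the size of that difference depends on the count added before the log and is not given. Ccl8 was at 30.4 to 117 (median 77.8) against 38.3, 32.8, 36.6 and 34.9, which overlapped (log2 0.94, adjusted p = 0.0201, and 0.0511 without proximal WT replicate 2 of the T/T colony). In all, 5 chemokine genes were higher and 6 lower with no overlap between segments, where 14.1% and 15.9% of all genes were, with Cxcl5 and Ccl7 among those that met the minimum through distal crypts alone.

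**Figure D1:**
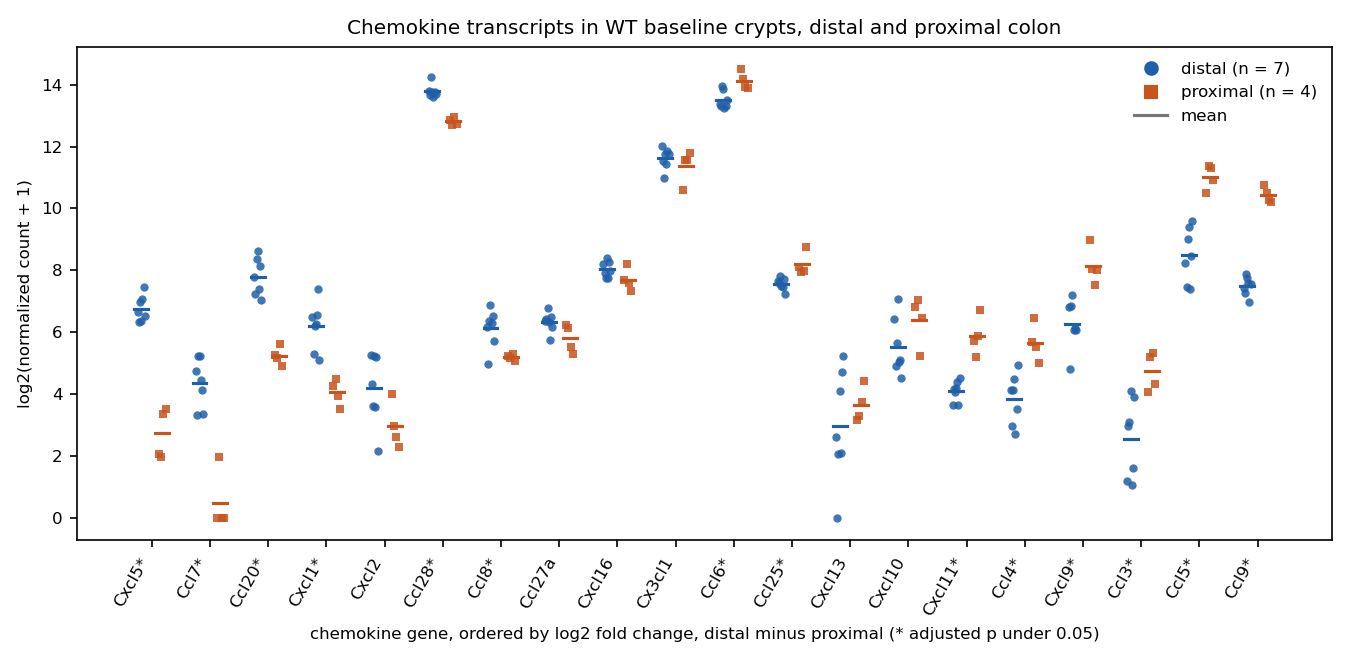
Each point is 1 WT baseline library, plotted as log2(normalized count + 1) on the vertical axis for the 20 chemokine genes tested, with 7 distal libraries (circles) and 4 proximal libraries (squares) and lines at the group means. Genes are ordered by the distal minus proximal difference, from Cxcl5 (log2 4.03) on the left to Ccl9 (log2 -2.94) on the right, and the points of both genes lie in separate ranges.

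Transcripts of leukocytes moved with these differences. Of 6 T cell markers tested, 5 were lower in distal crypts, and their summed level was 294 to 1147 against 1929 to 3107 in proximal crypts. Neutrophil markers other than Ly6g, which made up 52.9 to 99.6% of their sum, added to 25.9 to 67 in distal and 6.37 to 14.5 in proximal crypts, and 4 macrophage markers were higher and 2 lower. Of 13 chemokine receptor genes tested, 7 were lower and none higher in distal crypts, among them Ccr1, Ccr4, Ccr9, Cxcr3 and Ackr3. Ccr4, a receptor of T cells, averaged 7.37 ± 3.29 in distal and 99.7 ± 36.2 in proximal crypts (log2 -3.62, adjusted p = 1.28e-06). In a bulk sample fewer cells of a type and less RNA per cell cannot be told apart, and the part of these cells in the chemokine differences was not tested. The platelet chemokine Pf4 was 98.6 ± 17.9 in distal and 10.9 ± 3.17 in proximal crypts (log2 3.08, adjusted p = 5.81e-08). Among 5 inducing cytokines tested, Il18 (log2 1.75, adjusted p = 2.65e-08) and Il33 were higher and Ltb and Tnf were lower in distal crypts.

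The library names in the labels begin with a number whose meaning they do not give, and the WT baseline libraries carried 3 such name prefixes. With the prefix as a term, 8 of the 14 genes kept their call, where 23.0% of all genes passed, and Ccl3, Ccl4, Ccl5, Ccl25, Cxcl1 and Cxcl9 did not (adjusted p = 0.0554 to 0.488). Their log2 differences were then -1.04, -1.77, -1.74, -0.37, 1.86 and -1.49, in the same directions as before. Within the 1 prefix that held both segments, 10 kept the call, where 14.5% of all genes passed, and Ccl3, Ccl6, Ccl25 and Cxcl11 did not (adjusted p = 0.089 to 0.386). Their log2 differences there were -1.04, -0.43, -0.37 and -1.33.

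The comparison of WT crypts after DSS with WT baseline crypts asked how the chemokine transcripts stood after 4 days of repair, and it could be made in each colony. Ccl9 rose in both. In the T/T colony Ccl6 and Cx3cl1 also rose and Ccl28, Ccl25 and Cxcl11 fell, while in the Mtg16-null colony Cxcl5 and Cxcl3 rose. In the T/T colony 6 of 19 chemokine genes tested changed, 3 in each direction, against 35.6% of all genes (14.0% higher and 21.6% lower). In the Mtg16-null colony 3 of 21 changed, all higher, against 4.94% of all genes (3.71% higher and 1.24% lower). The median log2 change over the chemokine genes was -0.1 and 0.16, and over all genes 0.004 and -0.001. In both colonies the DSS libraries carried other name prefixes than the baseline libraries, so DSS and whatever the prefix marks cannot be told apart. Cxcl11 in the T/T colony and Cxcl3 in the Mtg16-null colony met the minimum of 10 through 1 group alone, and without such genes 5 of 18 and 2 of 18 passed.

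Ccl9 was at 210, 135 and 202 at baseline and at 721, 739 and 392 after DSS in the T/T colony. Every library after DSS was above every baseline library (log2 1.73, SE 0.313, adjusted p = 0.0131, with means of 182 ± 41.1 and 617 ± 195). In the Mtg16-null colony it went from 192, 173, 260 and 241 to 493, 561 and 490, again without overlap (log2 1.26, SE 0.202, adjusted p = 0.00379). Ccl6 was at 10556, 10889 and 12391 before and 20424, 19274 and 17822 after DSS in the T/T colony, a 1.7-fold rise (log2 0.77, SE 0.111, adjusted p = 0.00923). In the Mtg16-null colony its ranges overlapped, at 11879, 11313, 17819 and 16450 before and 20387, 15274 and 16800 after (log2 0.30, adjusted p = 0.376). The difference between the colonies was 0.46 on the log2 scale for Ccl9 (adjusted p = 0.41) and 0.47 for Ccl6 (adjusted p = 0.164).

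The CXCR2 ligand Cxcl5 was at 111, 88.6, 138 and 90.4 at baseline and at 351, 615 and 429 after DSS in the Mtg16-null colony. All 3 libraries after DSS lay above all baseline libraries (107 ± 23.1 against 465 ± 136, log2 2.09, SE 0.257, adjusted p = 0.000619). In the T/T colony the same transcript was at 147, 187 and 97.2 before and 68.2, 21.7 and 109 after DSS, with overlap (log2 -1.33, SE 0.593, adjusted p = 0.116). The DSS effects of the 2 colonies differed by -3.42 on the log2 scale, T/T colony minus Mtg16-null colony (SE 0.647, adjusted p = 0.00763). Cxcl5 was the 1 chemokine gene of 19 whose DSS effect differed, against 15.9% of all genes. The adjusted p of this difference was at most 0.0372 when any 1 library was left out.

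Cxcl3 was at 4.26, 0, 0.705 and 1.13 at baseline and at 27.3, 11.4 and 212 after DSS in the Mtg16-null colony. The rise (adjusted p = 0.0215) was uneven between libraries, and its size on the log2 scale moved from 4.33 to 2.94 when 5 rather than 1 was added to each count. It had adjusted p = 0.0875 without DSS replicate 1 and 0.0619 without baseline replicate 3, and without DSS replicate 3 the gene was below the filter. Cxcl2 had the same uneven pattern, with 41.2, 21.5, 12.7 and 40.7 before and 64.3, 102 and 620 after DSS, and did not pass by limma (log2 2.57, adjusted p = 0.065, and 0.0287 by edgeR and 0.0101 by DESeq2). Cxcl1 overlapped between baseline and DSS, with a log2 change of -0.04 (adjusted p = 0.966) in the Mtg16-null colony and -1.54 (adjusted p = 0.0897, and 0.0151 by DESeq2) in the T/T colony.

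**Figure D2:**
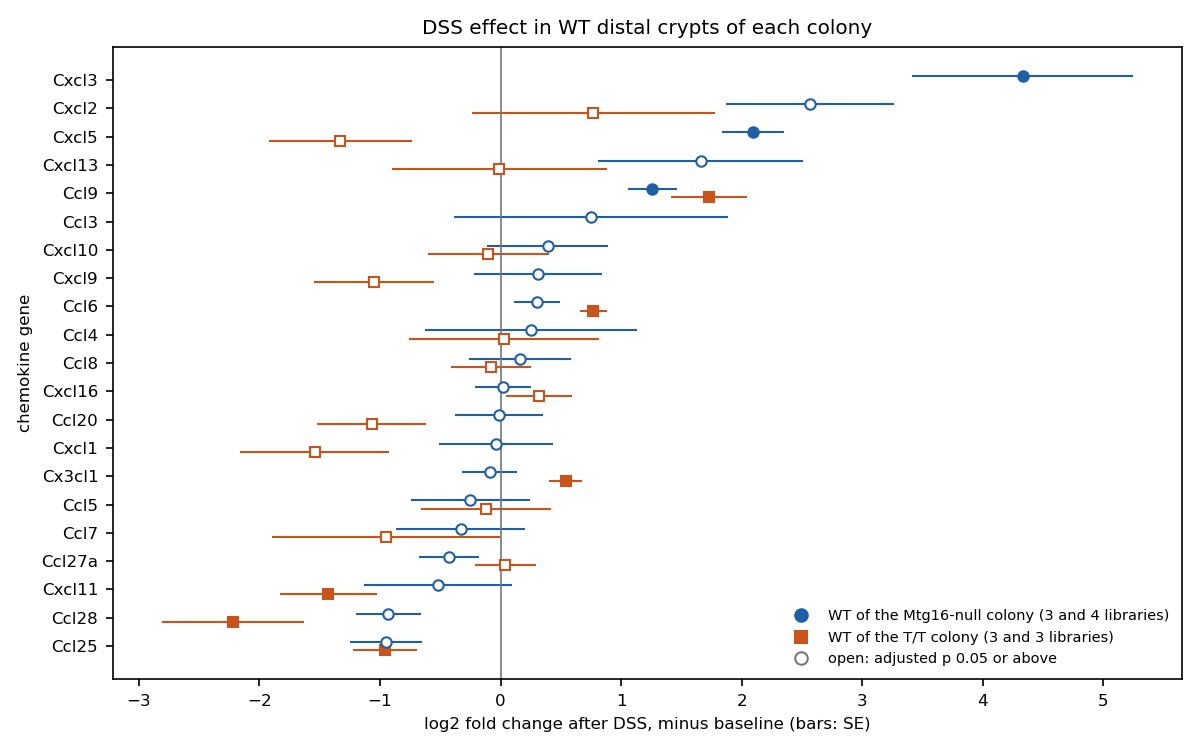
Points show the log2 change after DSS, minus baseline, of each chemokine gene tested in WT distal crypts of the Mtg16-null colony (circles, 3 DSS and 4 baseline libraries) and of the T/T colony (squares, 3 and 3), bars show the SE, and filled symbols mark an adjusted p under 0.05. Ccl9 is filled in both colonies, and Cxcl5 lies at 2.09 in one and -1.33 in the other.

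Ccl28, which binds CCR10, was at 13609, 14984 and 14231 at baseline in the T/T colony and at 2156, 1562 and 8567 after DSS. All 3 DSS libraries were lower, with replicate 3 nearest to baseline (14300 ± 689 against 4090 ± 3880, log2 -2.22, SE 0.592, adjusted p = 0.031, and 0.0695 by edgeR). The log2 change of Ccl28 ran from -2.96 to -1.73 when 1 library was left out. In the Mtg16-null colony it was at 15623, 14628, 21726 and 15290 before and 5116, 11491 and 11217 after, also without overlap, but did not pass by limma (log2 -0.93, adjusted p = 0.0823, and 0.0191 by DESeq2). Ccl25, the ligand of CCR9, was at 190, 228 and 159 before and 76.6, 93 and 131 after DSS in the T/T colony (log2 -0.96, SE 0.267, adjusted p = 0.0351). In the other colony it went from 225, 215, 252 and 199 to 73.1, 186 and 109, which did not pass (log2 -0.95, adjusted p = 0.106). Ccl20 gave log2 changes of -1.07 (adjusted p = 0.102) and -0.01 (adjusted p = 0.993) in the T/T and Mtg16-null colonies.

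Cx3cl1 was at 3011, 3948 and 3693 before and 4951, 4871 and 5614 after DSS in the T/T colony, a rise without overlap (log2 0.54, SE 0.139, adjusted p = 0.0277). Cxcl11 fell from 21.8, 12.4 and 23.4 to 7.14, 8.27 and 4.08 (log2 -1.43, SE 0.402, adjusted p = 0.0358). With a trend over transcript length removed, these 2 genes had log2 changes of 0.47 (adjusted p = 0.0519) and -1.14 (adjusted p = 0.0795). In the Mtg16-null colony neither passed, and Cx3cl1 had a log2 change of -0.09 (adjusted p = 0.842). Cxcl16 did not pass in either colony (log2 0.32, adjusted p = 0.37, and log2 0.02, adjusted p = 0.974). Cxcl14, below the filter, was listed at 1.42, 1.27, 0 and 0 before and 16.6, 18.3 and 19.6 after DSS in the Mtg16-null colony.

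The T/T colony result leaned on single libraries. Of its 6 called genes, Ccl25, Ccl28, Cx3cl1 and Cxcl11 each lost the call in 5 of 6 fits that left out 1 library, Ccl9 in 3 and Ccl6 in 2. In these fits 0 chemokine genes passed without baseline replicate 2 or without DSS replicate 1 (when 1 and 514 of all genes passed), and 10 passed without DSS replicate 3 (when 9086 did). Leukocyte and stromal transcripts moved with DSS in both colonies. In the Mtg16-null colony 5 of 6 neutrophil markers rose, and the markers other than Ly6g summed to 540 to 2500 after DSS against 29.1 to 61 at baseline. In the T/T colony these sums were 80.6 to 531 against 50.4 to 71.9. Ly6g, left out of them, made up 62.6 to 99.6% of the full sum in the Mtg16-null colony and 93 to 99.2% in the T/T colony. The sums thus describe only the less abundant neutrophil markers. Fibroblast markers summed to 356 to 440 against 31 to 213 in the Mtg16-null colony and to 147 to 356 against 44 to 113 in the T/T colony. In the T/T colony the collagens rose, with averages of 114 against 28.3 for Col3a1, 55.4 against 18.1 for Col1a1 and 48 against 14.7 for Col1a2. Dcn did not (17.9 against 17.6), and Lum (0.76 against 0.41) and Pdgfra (1.85 against 2.82) were near 0. The neutrophil chemokine receptor Cxcr2 averaged 76.7 ± 57.9 after DSS and 12.2 ± 4.12 at baseline in the Mtg16-null colony (log2 2.36, SE 0.509, adjusted p = 0.0237). Among cytokines that induce chemokines, Il1b rose there from 16 ± 4.64 to 654 ± 849 (log2 4.31, SE 0.761, adjusted p = 0.00748). The scavenging receptor Ackr3 rose in both colonies, and in the T/T colony Ccr2, a receptor of monocytes, fell by 2.90 (adjusted p = 0.0395) and the cytokine Il18 by 1.12 (adjusted p = 0.0295) on the log2 scale. Of the chemokine receptor genes 1 of 12 rose and 1 fell in the T/T colony and 2 of 15 rose in the Mtg16-null colony. The part of these cells in the chemokine changes was not tested.

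The comparison of Mtg16-null with WT crypts after DSS asked what loss of Mtg16 does to chemokine transcripts during repair. Ccl9 and Cxcl16 were higher in Mtg16-null crypts, 2 of 25 chemokine genes tested, where 0.629% of all genes passed (0.380% higher and 0.249% lower). The labels do not say that libraries of the 2 genotypes were paired. Those with the same number deviated together in this experiment (correlations of 0.317 to 0.554 in 3 pairs). A block for the number is given for that reason, so it was picked on the libraries that it tests. With the number as a block 8 of 25 passed, where 8.78% of all genes did (5.72% higher and 3.06% lower). These were Ccl9, Cxcl16, Cxcl9, Cxcl2, Cxcl3 and Ccl4, which were higher, and Ccl6 and Ccl28, which were lower. The median log2 difference was 0.97 over the chemokine genes and -0.002 over all genes.

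Ccl9 was at 1442, 1402, 1543 and 1163 in Mtg16-null crypts and at 547, 627 and 545 in WT crypts. Every Mtg16-null library lay above every WT library (1390 ± 161 against 573 ± 46.8, log2 1.27, SE 0.16, adjusted p = 0.0113). Cxcl16, the membrane-held ligand of CXCR6, was at 1089, 658, 1203 and 1198 against 360, 261 and 404, also without overlap. Its means were 1040 ± 258 and 342 ± 73.3 (log2 1.58, SE 0.257, adjusted p = 0.0332). Leaving out 1 library at a time, the Cxcl16 call was lost in 6 of 7 fits (all but the one without Mtg16-null replicate 2, adjusted p from 0.0152 to 0.119). The Ccl9 call was lost in 2 of 7, without WT replicate 3 (adjusted p = 0.056) and without Mtg16-null replicate 3 (adjusted p = 0.0526). With the block, the adjusted p was 0.000727 for Ccl9 and 0.00064 for Cxcl16. Cxcl16 had the smallest p among chemokine genes in a test of whether the Mtg16-null effect after DSS differed from that at baseline, but did not pass it (difference 1.56 on the log2 scale, SE 0.342, adjusted p = 0.47).

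Ccl6 was at 11146, 9169, 11712 and 13244 in Mtg16-null and at 22614, 17079 and 18713 in WT crypts. No Mtg16-null library reached the lowest WT library, but the adjusted p was 0.0733 (log2 -0.78, SE 0.169), against 0.00222 with the block and 0.00146 by DESeq2. Ccl28 was at 4665, 8151, 5940 and 5686 against 5675, 12849 and 12494, with overlap (log2 -0.70, adjusted p = 0.377, and 0.0236 with the block). The CXCR3 ligand Cxcl9 was at 176, 468, 577 and 493 against 141, 82.1 and 194 (log2 1.57, SE 0.436, adjusted p = 0.144, 0.0357 with the block and 0.00414 by DESeq2). Only Mtg16-null replicate 1 fell among the WT values of Cxcl9.

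Of the CXCR2 ligands, Cxcl2 was at 397, 373, 1016 and 184 in Mtg16-null and 71.4, 114 and 690 in WT crypts, and Cxcl3 at 133, 144, 329 and 49.5 against 30.3, 12.7 and 236. The groups overlapped at the high values of replicate 3, while Mtg16-null libraries 1 to 3 each lay above the WT library of the same number, and both genes passed with the block alone (adjusted p = 0.0173 and 0.0352). Ccl4, at 220, 58, 192 and 72.6 against 17.3, 3.91 and 119, did likewise (adjusted p = 0.0203). Cxcl5, at 399, 1039, 1334 and 425 against 389, 688 and 478, did not pass (log2 0.47, adjusted p = 0.72), nor did Cxcl1 (log2 0.17, adjusted p = 0.913). Among epithelial chemokines that did not pass, Ccl20 differed by -0.52 (adjusted p = 0.617), Ccl25 by -0.42 (adjusted p = 0.728), Cx3cl1 by 0.33 (adjusted p = 0.416) and Cxcl14 by 1.07 (adjusted p = 0.209) on the log2 scale. The monocyte attractant Ccl2 was at 18.1, 21.2, 40.8 and 27.4 against 3.24, 12.7 and 3.65 and also did not pass (log2 2.04, adjusted p = 0.125). With no overlap between genotypes there were 4 chemokine genes higher and 1 lower, where 6.18% and 5.26% of all genes were. Of these, Ccl2 met the minimum of 10 through Mtg16-null crypts alone.

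The summed levels of leukocyte markers were compared beside these results. Neutrophil markers other than Ly6g, which made up 29.6 to 92.8% of the full sum, added to 4280 to 15400 against 609 to 2840 in WT. Of 7 tested genes 0 passed by limma and 6 with the block. Macrophage markers summed to 10380 to 19964 against 9085 to 12641, and Lyz2 passed. Chemokine receptors summed to 1320 to 3030 against 702 to 1199, with 0 of 16 passing by limma and 9 with the block. The part of these cells in the chemokine differences was not tested.

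Genes that mark the colon segment also differed between these libraries. Abca12 and Prap1, which were higher in proximal WT crypts, were at 175 to 440 and 72.7 to 147 in Mtg16-null crypts after DSS, against 75.7 to 111 and 32.8 to 43.2 in WT, without overlap. Hoxd13, which was at 0 in proximal WT crypts, was lower without overlap (815 to 2860 against 3320 to 3790), while Hoxb13 and Atp12a overlapped. Of the 8 chemokine genes that were higher in proximal WT crypts, 6 had a positive log2 difference in these Mtg16-null libraries (Ccl9 1.27, Ccl4 2.40, Ccl3 1.99, Cxcl9 1.57, Cxcl11 0.97 and Ccl5 0.41) and Ccl6 (-0.78) and Ccl25 (-0.42) a negative one. Of the 6 that were higher in distal WT crypts, Ccl28 (-0.70) and Ccl20 (-0.52) had a negative one and the other 4 a positive one. Ccl9 alone among these 14 passed by limma, and the part of the segment in these differences was not tested.

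**Figure D3:**
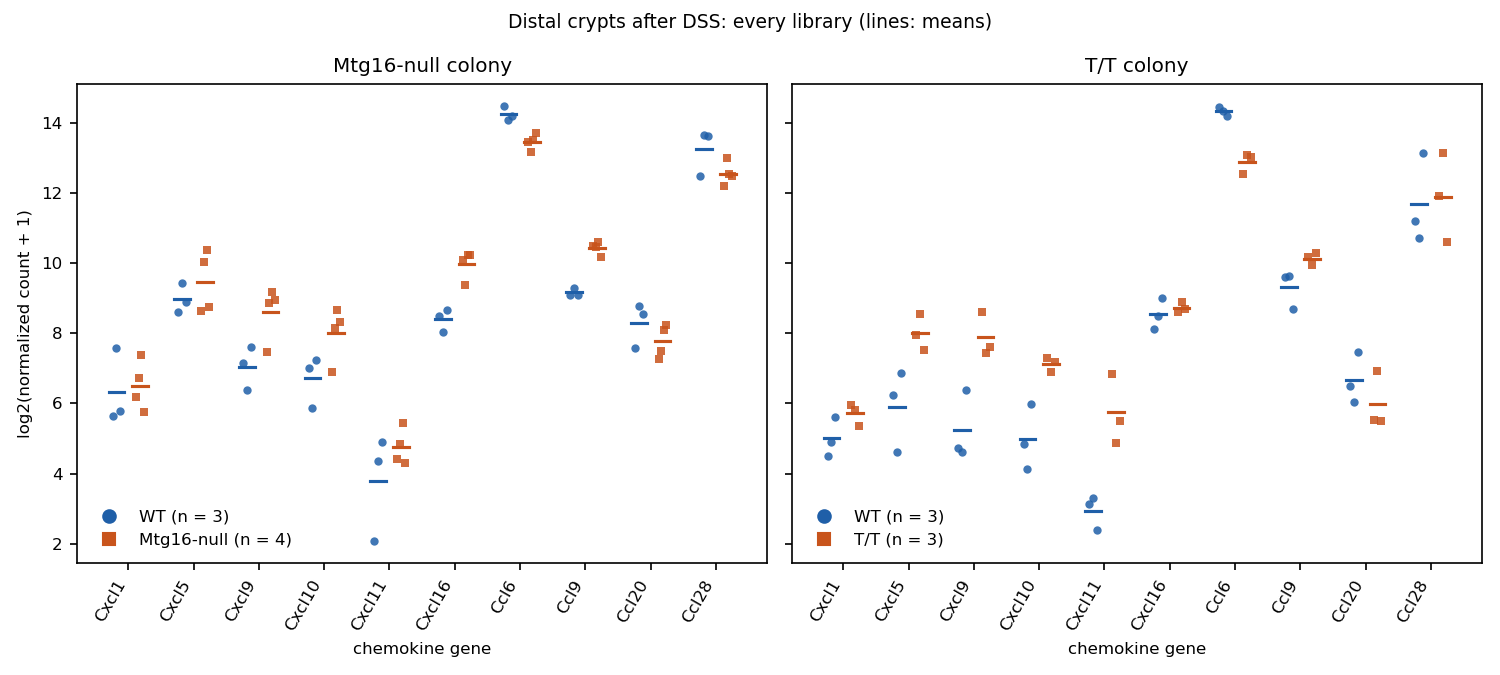
Each point is 1 library of distal crypts after DSS, as log2(normalized count + 1), for 10 chemokine genes in the Mtg16-null colony (left, 3 WT and 4 Mtg16-null libraries) and the T/T colony (right, 3 WT and 3 T/T libraries), with lines at the means. Ccl6 is lower and Ccl9 higher in every mutant library than in every WT library of its colony, and Cxcl16 does not overlap between genotypes in the Mtg16-null colony and overlaps in the T/T colony (adjusted p = 0.778 for the difference).

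The comparison of T/T with WT crypts after DSS asked the same of the P209T substitution. By limma 0 of 21 chemokine genes passed, as did 0% of all genes, and by edgeR also 0. At an unadjusted p under 0.05 there were 8 chemokine genes, where 8.77% of all genes had one. DESeq2 called 5 of 21, where it called 2.45% of all genes. Without overlap between genotypes, 5 chemokine genes were higher and 1 lower in T/T crypts, where 5.66% and 8.02% of all genes were, and Cxcl11 met the minimum of 10 through T/T crypts alone. The median log2 difference was 0.56 over the chemokine genes and 0.032 over all genes.

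Ccl6, the 1 chemokine gene that was lower without overlap, was at 5913, 8616 and 8255 in T/T and 22202, 20782 and 18818 in WT crypts. No T/T library came near the lowest WT library (log2 -1.46, limma adjusted p = 0.149, DESeq2 adjusted p = 4.57e-06). The 2 protein-coding CXCR3 ligand genes and Cxcl11, annotated as a polymorphic pseudogene, lay higher in T/T crypts without overlap. Cxcl9 was at 389, 172 and 196 against 25.4, 23.4 and 82.7 (log2 2.65, limma adjusted p = 0.237, DESeq2 adjusted p = 0.00375), and Cxcl11 at 113, 28.6 and 44.7 against 7.76, 8.92 and 4.31 (log2 2.79, limma adjusted p = 0.215, DESeq2 adjusted p = 0.000941). Cxcl10 was at 155, 119 and 144 against 27.5, 16.7 and 62.9 (log2 2.13, limma adjusted p = 0.257, DESeq2 adjusted p = 0.0125). Of 8 interferon-response genes tested, 0 passed by limma and 0 by DESeq2.

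Cxcl5 was at 245, 373 and 182 in T/T and 74.1, 23.4 and 115 in WT crypts, without overlap (log2 2.10, limma adjusted p = 0.369, DESeq2 adjusted p = 0.0494). Ccl9 was at 1153, 979 and 1238 against 783, 797 and 414, also without overlap (log2 0.81, limma adjusted p = 0.515). Ccl28 had no order by genotype, at 3815, 9009 and 1545 against 2344, 1684 and 9045. Cxcl16, at 386, 471 and 410 against 278, 360 and 508, overlapped (log2 0.18, adjusted p = 0.848), and Cxcl1 had a log2 difference of 0.70 (adjusted p = 0.709). The difference between the Mtg16-null and T/T effects after DSS passed for 0 of 21 chemokine genes and 0% of all genes by limma, with the smallest p for Cxcl16 (1.40 on the log2 scale, unadjusted p = 0.00318, adjusted p = 0.778). Neutrophil markers other than Ly6g, which made up 74.6 to 98.8% of the full sum, added to 1150 to 1850 in T/T and 86.9 to 577 in WT crypts. B and plasma cell markers summed to 728 to 816 against 227 to 400. Of the segment genes, Atp12a (7280 to 21400 against 29000 to 61800) and Hoxb13 (9520 to 19000 against 21700 to 26300), both higher in distal WT crypts, were lower in T/T crypts without overlap. Prap1 was higher without overlap (77.3 to 122 against 44.8 to 74.7), and Abca12 and Hoxd13 overlapped. The part of these cells and of the segment was not tested.

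Ccl6 and Ccl9, 2 neighbouring genes whose products bind the same receptor, are given together here, and no test compared one with the other. Proximal WT crypts held more of both than distal WT crypts. After DSS both lay above baseline in WT crypts of the T/T colony, whereas crypts of both mutants after DSS had less Ccl6 and more Ccl9 than their WT littermates in every library, of which Ccl9 in Mtg16-null crypts passed by limma. The WT libraries after DSS served in both kinds of comparison. In proximal baseline crypts, Ccl6 was at 12026 and 11014 in Mtg16-null and 24824 and 19925 in WT, and at 8587 and 6219 in T/T and 15182 and 14577 in WT. Each mutant pair was below its WT pair (log2 -0.95, adjusted p = 0.164, and log2 -1.03, adjusted p = 0.0868). With 2 libraries per group such separation was not rare among the 19 chemokine genes tested. In the Mtg16-null colony 4 were higher and 4 lower without overlap, and in the T/T colony 2 and 5. Of those in the Mtg16-null colony, Ccl21a, Cxcl1 and Cxcl13 met the minimum count through 1 group alone. The share of all genes so separated was not computed. Ccl6 passed in 1 of 4 fits that left out a library in each colony (lowest adjusted p = 0.0421 and 0.0366). Ccl9 was also lower in proximal mutant crypts, at 977 and 1075 against 1881 and 1549 in the Mtg16-null colony (log2 -0.74, adjusted p = 0.298) and at 780 and 831 against 1202 and 1137 in the T/T colony (log2 -0.54, adjusted p = 0.155).

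**Figure D4:**
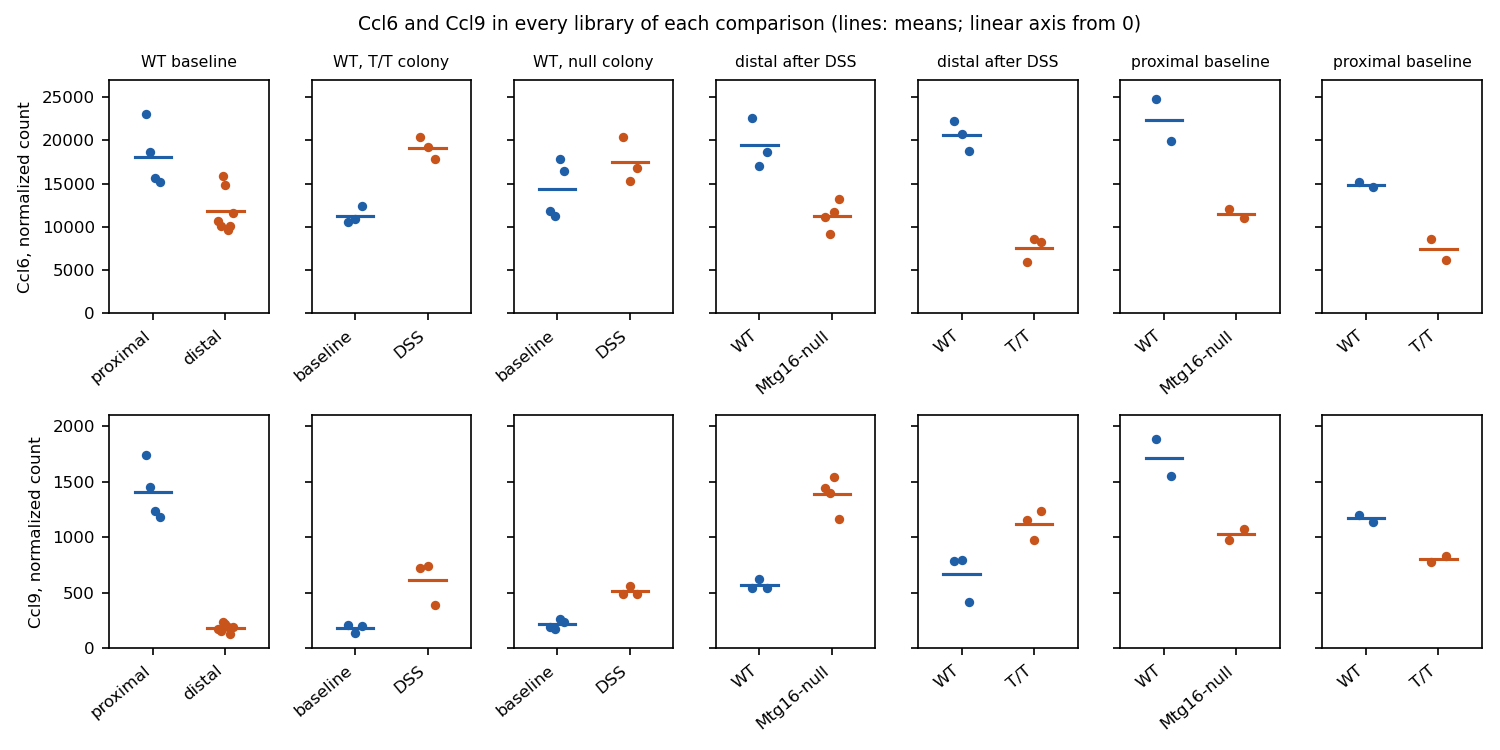
Normalized counts of Ccl6 (top row) and Ccl9 (bottom row) are plotted on linear axes from 0, with 1 point per library and lines at group means, for 7 comparisons that were normalized within their own tables or scaled together. Ccl6 stands lower in both mutants than in WT in the 4 genotype panels shown, while Ccl9 is higher in the mutants after DSS and lower in the proximal baseline crypts.

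At baseline, no chemokine gene passed in a genotype comparison by limma. In proximal crypts 0 of 19 passed in each colony (0.0645% of all genes for Mtg16-null and 0.232% for T/T). An unadjusted p under 0.05 was found for 5 and 3 chemokine genes, where 5.96% and 12.0% of all genes had one. Of the 5, Ccl21a and Cxcl13 met the minimum count through Mtg16-null crypts alone. In distal crypts 0 of 20 passed for Mtg16-null (0.239% of all genes). There 5 had an unadjusted p under 0.05, where 4.63% of all genes did. Among these 5, Cxcl13 met the minimum count through Mtg16-null crypts alone, so that a difference was built into its selection. For distal T/T crypts 0 of 19 passed (0.0369% of all genes), and 0 had an unadjusted p under 0.05, where 4.65% of all genes did. In both, edgeR and DESeq2 also called 0 chemokine genes, where they called 0.210% and 1.45% of all genes for Mtg16-null and 0.0369% and 0.392% for T/T. Distal Mtg16-null and WT baseline libraries carried 2 name prefixes, each with 2 libraries of both genotypes, and 0 chemokine genes passed with the prefix as a term (8 of all genes did) or within the prefix with no doubted library (2 did). Distal Ccl6 overlapped between genotypes, at 8974, 10011, 11309 and 9883 in Mtg16-null and 10957, 10343, 16364 and 15162 in WT (log2 -0.37). In the T/T colony it was at 9340, 7482, 9212 and 6436 in T/T and 9086, 9489 and 10724 in WT (log2 -0.28, adjusted p = 0.863). Between the distal T/T effect after DSS and that at baseline, Ccl6 differed by -1.18 on the log2 scale (SE 0.24, adjusted p = 0.116), and 0 of 19 chemokine genes passed, where 0.0680% of all genes did.

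Distal Cxcl9 was at 263, 207, 458 and 168 in Mtg16-null and 114, 27.8, 117 and 151 in WT baseline crypts. It was 1 of 2 chemokine genes, with Cxcl11, that were higher without overlap, where 2.58% of all genes were (Cxcl9 log2 1.54, adjusted p = 0.715, and 1.64, adjusted p = 0.496, without Mtg16-null replicate 2). Without that library 3 were, Ccl7 being added, where 4.20% of all genes were. In that fit 6 chemokine genes had an unadjusted p under 0.05, where 5.91% of all genes did. Among these 6, Ccl2 and Cxcl13 met the minimum count through Mtg16-null crypts alone, so that a difference was built into their selection. Mtg16-null replicate 2, the library whose segment genes went against its label, was the lowest of its group in Cxcl5 (1.05), Cxcl1 (2.09), Ccl20 (24.1) and Ccl28 (5817) and the highest in Ccl9 (859). Without it the log2 differences went from -1.58 to -0.24 for Cxcl5, from -1.51 to -0.53 for Cxcl1, from -1.58 to -0.99 for Ccl20 and from 0.47 to -0.08 for Ccl9. The number of genes called over the whole table rose from 33 to 143 without it, and 0 were chemokine genes either way. The Mtg16-null effect after DSS minus that at baseline was 0.80 for Ccl9 on the log2 scale with all libraries (adjusted p = 0.999) and 1.35 without this one (adjusted p = 0.0777). For Cxcl16 it was 1.56 (adjusted p = 0.47) and 1.46 (adjusted p = 0.168).

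The comparison of T/T with WT tumors asked about chemokines in inflammatory neoplasia. No chemokine gene of 32 tested passed by limma, edgeR or DESeq2, and 0 had an unadjusted p under 0.05. Over all genes limma and edgeR called 0%, DESeq2 called 0.151%, and 2.47% had an unadjusted p under 0.05. The adjusted p was 0.998 for every chemokine gene by limma, and the T/T and WT values overlapped for all 32. The median log2 difference was 0.24 over the chemokine genes and -0.002 over all genes.

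In tumors 32 of the 34 listed chemokine genes passed the filter on low counts, against 19 to 25 in the comparisons of crypts. Cxcl5 was at 7649, 14403 and 7112 in T/T and at 10514, 11682 and 9172 in WT tumors, with the T/T values on both sides of the WT values. Cxcl14 was at 3962, 3400 and 3931 against 3399, 5390 and 4557, and Cxcl16 at 3210, 4078 and 2877 against 2949, 3816 and 3157. The other CXCR2 ligands overlapped too, with Cxcl2 at 2082, 2465 and 1434 against 3704, 3032 and 1811 and Cxcl1 at 2216, 2036 and 1474 against 2942, 2567 and 1010. Neither Ccl6, at 8205, 9088 and 7041 against 9068, 6653 and 5282, nor Ccl9, at 1167, 1494 and 828 against 1089, 846 and 689, was separated by genotype.

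Ccl28 spread widely within each genotype of tumor, at 3507, 3693 and 1395 in T/T and 3664, 1209 and 798 in WT. Ccl20, at 257, 635 and 167 against 479, 250 and 104, spread as widely, while Cx3cl1, at 3033, 3522 and 2918 against 2526, 2568 and 3401, was the steadiest of these. Stromal and lymphoid chemokines were present, with Cxcl12, the CXCR4 ligand, at 2292, 4624 and 1780 against 2291, 1436 and 1479, and Ccl21a, the CCR7 ligand, at 2250, 3996 and 1554 against 1623, 1553 and 2279. T/T replicate 2 was the highest library in both. The chemokine gene with the smallest p was Ccl22 (log2 0.51, unadjusted p = 0.0531). All 23 chemokine receptor genes were tested in tumors and 0 passed, with summed levels of 6673 to 11696 in T/T and 7038 to 8617 in WT. Fibroblast markers summed to 127907 to 179215 over the 6 tumors, and to 28 to 189 in WT distal baseline crypts of a table normalized separately.

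**Figure D5:**
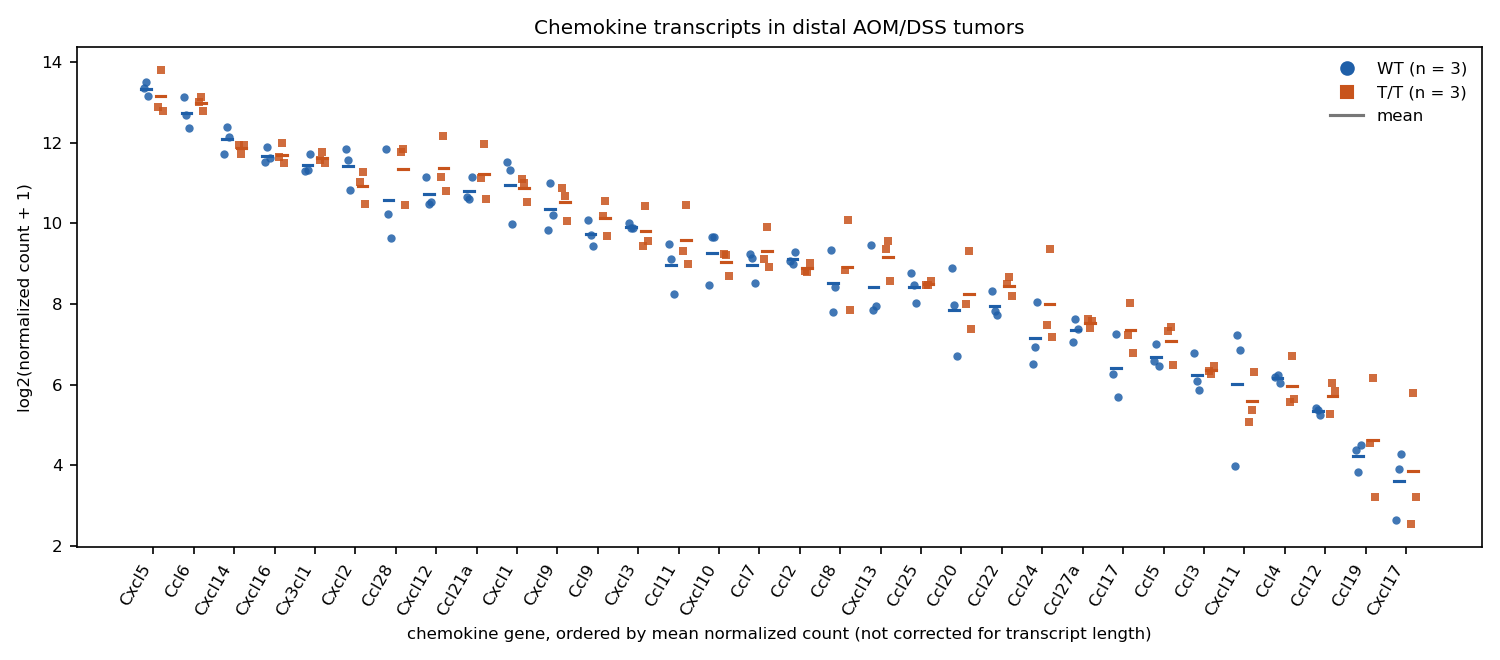
Each point is 1 tumor library, as log2(normalized count + 1), for the 32 chemokine genes tested, with 3 WT (circles) and 3 T/T (squares) tumors and lines at the means, ordered by mean normalized count without correction for length. The circles and squares overlap at every gene, including Cxcl5 on the far left.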

How the data were processed

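Poly(A)-selected RNA was sequenced by the authors, and per the labels the reads went through fastp 0.20.0, Salmon 1.3.0 (mm10) and DESeq2 1.26.0 in R 3.6.3. The deposited values are a signal unit, gene counts divided by DESeq2 size factors, in 9 tables with 59 library columns. The tables also hold the authors' own fold changes and p-values, which were not used. Whole reads recovered from 7 tables were used (100% of values whole within 0.02). Those of the 2 genotype tables of proximal crypts were not used, so edgeR and DESeq2 were not run there.

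Genes with a mean of at least 10 were tested by limma 3.58.1 with a mean-variance trend on log2(normalized count + 1), so fold changes of low genes are understated, and p-values were adjusted by Benjamini-Hochberg over all genes at 0.05. WT libraries of the Mtg16-null colony before and after DSS lay in 2 tables, so their recovered reads were joined and scaled by TMM. Differences between effects were tested from the fits of their 2 comparisons. The removal of a length trend, the fit without the library whose segment genes went against its label and the test of the DSS effect between colonies were chosen after seeing the data. edgeR 4.0.16 and DESeq2 1.42.0 in R 4.3.3 on recovered reads, a pseudocount of 5, no filter, a replicate block, the library name prefix as a covariate and leaving out each library were the alternatives. Same-numbered libraries deviated together in Mtg16-null and WT crypts after DSS (correlations 0.554, 0.46 and 0.317), so that block is printed beside its results. The labels do not pair these libraries, the choice to print the block came from the same data, and Mtg16-null replicate 4 has no partner in it. The fits were run on simulated counts with the same dispersion for every gene and no pairing or outlying library. That run does not cover genes as uneven between libraries as Cxcl2 or Ccl28. Library values are given for the genes called, at most the 12 with the largest change, and for Cxcl1, Cxcl5, Ccl20, Ccl25, Ccl28, Cxcl14, Cxcl16 and Cx3cl1. Ccl2, Ccl22, Cxcl2, Cxcl12, Ccl21a and genes called by another tool or the block alone were added after their values were seen. The chemokine genes and marker lists were chosen with earlier results of these data known. Coordinates are from GENCODE (GRCm38), and promoters are from RefSeq (GRCm38.p6). Promoter windows of the other 10 genes and protein sequences were not used here. One item is not reported here.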

Additional observations from a re-analysis of the deposited data

Results flagged for a closer look

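Of 62 sets of values (1 chemokine gene in 1 group of 4 to 10 libraries), 6 held a library set apart from the rest by Dixon's criterion, where chance gives about 1 in 20. Ccl25 was 428 in proximal WT replicate 2 of the T/T colony, next to 275. Ccl7 was 2.91 in proximal WT replicate 2 of the Mtg16-null colony, where the others were at 0. Ccl28 was 19400 in distal WT baseline replicate 3 of the Mtg16-null colony, next to 14100, and the same library stood out in the genotype table (20000, next to 14400). Cxcl1 was 200 in distal Mtg16-null baseline replicate 3, next to 24.3. Cxcl5 was 157 in distal T/T baseline replicate 3, next to 72.8.

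The DSS effect on Cxcl5 in WT distal crypts differed between the colonies by -3.42 on the log2 scale, T/T colony minus Mtg16-null colony (limma, adjusted p = 0.00763). The DSS libraries of the colonies carried different library name prefixes, and the cause was not tested.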

How the results depend on the processing

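Of 788 recomputed values of named genes, 683 kept their direction and side of the threshold, 53 lost their call, 30 gained one and 22 changed sign. With no library left out, 314 of 355 were kept. The number of chemokine genes called moved as follows. The share of all genes called in the same fit is in parentheses. With the replicate block it was 3 for DSS in WT of the T/T colony (19.7%), 6 for DSS in WT of the Mtg16-null colony (8.23%), 8 for Mtg16-null after DSS (8.78%), and 1 for proximal Mtg16-null (0.229%) and 1 for proximal T/T (1.10%), in both Ccl6 (adjusted p = 0.0249 and 0.0265). Ccl8 lost its call between segments with the block (log2 0.8, adjusted p = 0.0667). With DESeq2 it was 5 for DSS in WT of the Mtg16-null colony (9.10%), 4 for Mtg16-null after DSS (5.02%) and 5 for T/T after DSS (2.45%). With the library name prefix as a covariate it was 8 for distal against proximal crypts (23.0%). Outside Mtg16-null against WT after DSS the same number did not mark a pair (a correlation at or below 0.1 in at least 1 pair, or 2 pairs only), and the block changed no other count by over 1.5 times.

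Leaving out each library in turn, the count ranged from 0 to 10 for DSS in WT of the T/T colony (0 without baseline replicate 2 or DSS replicate 1), from 2 to 6 in the Mtg16-null colony (6 without DSS replicate 2), from 0 to 2 for Mtg16-null after DSS (0 without WT replicate 3 or Mtg16-null replicate 3), from 0 to 1 for proximal Mtg16-null, from 0 to 1 for proximal T/T, and from 1 to 4 for the DSS effect between colonies.

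Sign changes came in genes that did not pass. For DSS in the Mtg16-null colony the log2 change of Cxcl1 (-0.04) was 0.02 with the block, 0.18 by edgeR and 0.17 by DESeq2, and that of Ccl20 (-0.01) was 0.2 with the block. Leaving out each library gave -0.66 to 0.3 for Cxcl1, -0.26 to 0.35 for Ccl20, -0.12 to 0.2 for Cxcl16 and -0.28 to 0.06 for Cx3cl1 there. It gave -0.18 to 0.79 for Cxcl1 in Mtg16-null crypts after DSS and -0.01 to 0.39 for Cx3cl1 between segments. The cause was not tested. Groups of 2 to 4 libraries limit all genotype comparisons, and genes under 10 counts were not tested.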
